A study of Mus musculus with 40 samples.

Results

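The potassium channel subunits were taken as the probes for a gene whose name on the array starts with Kcn, leaving out Kcnj10 and Kcnj13. There were 135 such probes for 93 genes among the 55681 gene probes and 36406 gene names of the array. Their RNA was measured in the cortex and the cerebellum of C57Bl/6 mice on 40 Agilent one-colour arrays, 4 for each of 10 groups, and the study's text gives 4 mice a group. In each region the groups were wild-type (WT) mice of 2 months (young) and of 29 months (aged) on the normal diet with 36 mg/kg α-tocopherol, aged WT mice on a vitamin E-deficient diet, and aged Ttpa-/- mice on either the deficient diet or a diet supplemented to 600 mg/kg α-tocopherol. Ttpa encodes the α-tocopherol transfer protein, so that Ttpa-/- mice lack vitamin E unless it is supplied in excess. All Ttpa-/- mice were aged, and all young mice were WT on the normal diet. The study compared arrays of aged Ttpa-/- with aged WT mice to ask about chronic oxidative stress, and of aged with young WT mice to ask about ageing. Its text does not name the diets in the first of these contrasts. Here it is taken as Ttpa-/- mice on the deficient diet against WT mice on the normal diet.

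Potassium channels let potassium leave or enter the cell and so set the resting potential, the shape of the action potential and the rate at which a neuron fires. The voltage-gated pore subunits open on depolarization, and among them Kcna (Kv1) sits largely in axons, Kcnc (Kv3) in fast-spiking neurons and Kcnd (Kv4) in dendrites, while Kcnf, Kcng, Kcns and Kcnv make no channel of their own and modify other pores. Kcnj subunits pass current inward, Kcnk subunits carry a leak current, Kcnm and Kcnn subunits answer to calcium, Kcnq subunits carry the M current, Kcnt subunits answer to sodium, and Kcnab, Kcne and Kcnip subunits are accessory proteins that set gating and surface level.

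By class there were 52 probes for 35 voltage-gated pore genes, 20 for 13 accessory genes, 17 for 13 Kcnj genes, 15 for 14 Kcnk genes, 9 for 5 Kcnm genes, 5 for 4 Kcnn genes, 11 for 5 Kcnq genes and 4 for 3 Kcnt or Kcnu genes. A further 2 probes were for Kcnq1ot1, a long antisense RNA that is a member by its name alone. Levels are given as log2 of the signal over the array's 75th percentile, the same quantity for every probe, and levels of different probes are not compared with each other. A probe was tested in a comparison where one of the compared groups had it well above background on 4 of 4 arrays, which all but 28 of the 135 probes met in some group, leaving 79 genes. Of these 28 probes, 7 were not above background on any of the 40 arrays, among them the single probes of Kcnj1, Kcnk7, Kcnk18 and Kcnn1. Of the remaining genes that could not be tested between regions, Kcnj2 was above background on 7 arrays and Kcnn4 on 2. For the 34 genes with several probes, the one with the highest mean stands for the gene, and the others are mentioned for some of the genes where they differ.

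Between 84 and 108 of the probes were well above background on each array, the 75th percentile of the signal lay between 365 and 925, and arrays of the same group correlated at r = 0.973 to 0.993. Ttpa itself was above background on 4 of 4 cerebellum arrays in each WT group, on 0 of 4 in Ttpa-/- mice on the deficient diet and on 1 of 4 in those on the supplemented diet. Markers of the cerebellum were called higher in cerebellum in 8 of 8 cases. Of 6 markers of the cortex, 5 were called lower there and 1 higher. The arrays were on 5 slides, each group lying on one of them. Groups of the same slide are compared only for ageing in the cortex, for diet in aged WT cerebellum and for diet in Ttpa-/- cerebellum. In all other comparisons slide cannot be told apart from condition. RNA was from whole tissue, in which fewer cells of a type and less RNA per cell cannot be told apart.

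The 2 regions differed in most of the channel genes. Cerebellum had more RNA of the Kv3 subunit Kcnc1, the Kv4 subunit Kcnd2, the leak channels Kcnk1, Kcnk3, Kcnk10 and Kcnk12, the inward rectifier Kcnj12, the sodium-activated channel Kcnt1 and the silent subunit Kcng4. Cortex had more RNA of the silent subunits Kcnf1, Kcng1, Kcns1 and Kcnv1, of Kcnj4 and Kcnh3, and of the M-current subunits Kcnq3 and Kcnq5. Averaged over the 5 conditions, 27 probes were called higher in cerebellum and 43 lower, where a call needed an adjusted p under 0.05 in limma and a fold over 1.5. Of all probes tested, 21.5% were called higher and 17.9% lower. The median difference was -0.33 over the potassium channel probes and 0.01 over all probes. By the probe that stands for each gene, 20 genes were called higher, 35 lower and 24 neither, and 14 of those 24 had an adjusted p under 0.05 at a smaller fold.

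**Figure D1:**
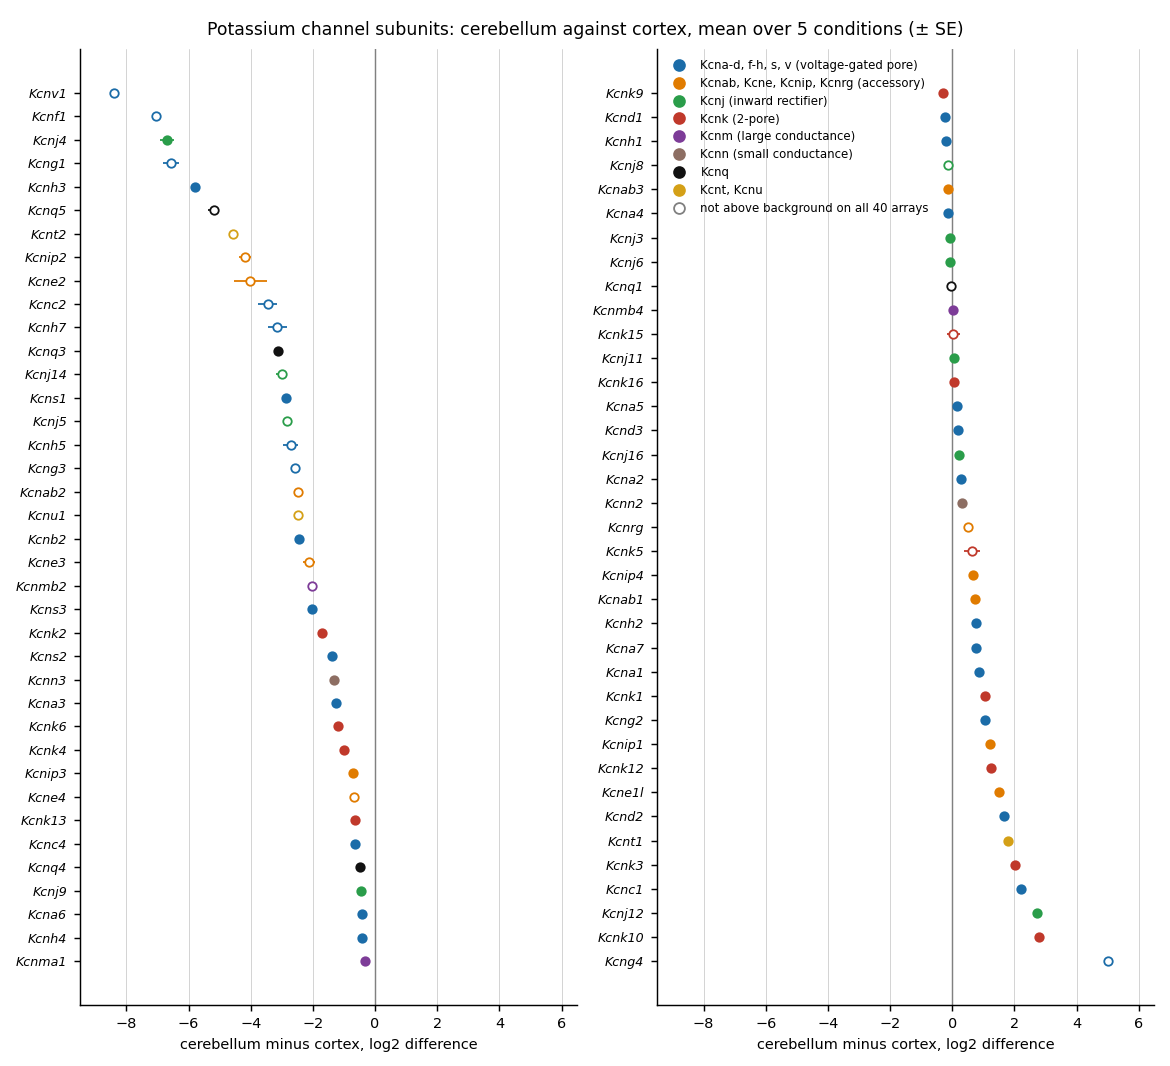
Difference in log2 signal, cerebellum minus cortex, for the probe that stands for each gene shown, averaged over the 5 conditions with its standard error (n = 20 arrays a region), coloured by channel class. Open circles mark probes that were not above background on all 40 arrays. Kcnv1, Kcnf1 and Kcnj4 lie at the low end of the left panel and Kcng4 at the high end of the right panel, at 5.0.

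The voltage-gated pore subunits went both ways, with 10 of 43 probes called higher in cerebellum and 19 lower. Kcnc1, a Kv3 subunit that lets neurons fire at high rates, had a lowest, median and highest level of 1.61, 2.10 and 2.91 in cortex and of 3.86, 4.43 and 4.73 in cerebellum, a difference of 2.21 ± 0.07 (SE, adjusted p = 9.52e-25). The ranges of the regions do not touch for this probe. The dimmest Kcnc1 probe differed less, by 0.35 to 0.76 across the 5 conditions. Its ranges overlap, at 1.81 to 2.31 in cortex and 2.30 to 2.98 in cerebellum. Kcnc4 (-0.64 ± 0.05) and Kcnc2 (-3.45 ± 0.30) of that family were lower in cerebellum, and Kcnc2 is taken up again with ageing.

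Kcnb2, a pore of the delayed rectifier current, was lower in cerebellum (-2.45 ± 0.09). The silent subunits were split. Kcnv1 lay between 1.73 and 2.76 in cortex and was above background on 1 of 20 cerebellum arrays, which makes it at least 129-fold higher in cortex. Kcnf1 was above background on 7 of 20 cerebellum arrays and at least 94.6-fold higher in cortex, and Kcng1 on 2 of 20 and at least 38.5-fold higher. A bound of this kind sets the cortex mean against the lowest signal that counted as above background on each cerebellum array, or the probe's own where that was higher. Kcns1 (-2.86 ± 0.09), Kcns2 (-1.39 ± 0.04) and Kcns3 (-2.03 ± 0.09) were also lower in cerebellum. Kcng4 went the other way, with a range of -5.18 to -2.57 in cortex, where 16 of 20 arrays were above background, and of 0.42 to 1.55 in cerebellum (5.0 ± 0.13, adjusted p = 2.18e-26). Since 4 cortex arrays were not above background, the size of the Kcng4 difference is uncertain, and it was 3.56 under the normexp background correction.

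Kcnd2, the Kv4 subunit of the fast A-type current, ranged from 2.85 to 3.64 in cortex and from 4.59 to 5.33 in cerebellum (1.67 ± 0.05), whereas Kcnd3 differed by 0.20 ± 0.04 and was not called. Among Kv1 subunits Kcna1 (0.85 ± 0.04) and Kcna7 (0.77 ± 0.05) were higher in cerebellum, Kcna3 (-1.27 ± 0.07) was lower, and Kcna2 (0.28 ± 0.04) and Kcna4 (-0.13 ± 0.05) were not called. The second probe of Kcna7 went the other way, by -0.56 to -0.09 across the 5 conditions, with ranges that overlap. Kcnh3, of the ether-a-go-go family, ranged from 4.87 to 5.64 in cortex and from -1.48 to 0.47 in cerebellum (-5.81 ± 0.08, adjusted p = 5.37e-35). Of the same family, Kcnh2 was higher in cerebellum (0.75 ± 0.08), Kcnh5 was lower (-2.72 ± 0.23), and Kcnh1 (-0.21 ± 0.06) was not called. Kcnh7 was at least 5.17-fold higher in cortex, with 5 of 20 cerebellum arrays above background and ranges that overlap.

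Among Kcnq probes 1 of 9 was called higher in cerebellum and 5 lower. Kcnq3, a subunit of the neuronal M channel, ranged from -0.90 to -0.24 in cortex and from -4.41 to -3.08 in cerebellum (-3.12 ± 0.08). Kcnq5 was at least 28-fold higher in cortex, with 8 of 20 cerebellum arrays above background.

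Kcnip1, an accessory protein of Kv4 channels, was higher in cerebellum by both of its probes. Its brightest probe differed by 1.20 ± 0.04, from -0.35 to 0.09 in cortex to 0.53 to 1.46 in cerebellum. The other probe ranged from -2.22 to -0.28 in cerebellum and was above background on 0 of 20 cortex arrays, which makes it at least 12.3-fold higher in cerebellum. The first 30 of 60 bases of each are shown because the probes lie in separate places, with the position of the whole probe on mm9.
Kcnip1, brightest probe, chr11:33530511-33530570, minus strand: tgttccaaaatgtcatgtaactgaggacac
Kcnip1, other probe, chr11:33892765-33892824, minus strand: tccaaaagatgcagactcgggttcgtgaaa

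Other Kv4 accessory genes were Kcnip4, higher in cerebellum (0.68 ± 0.04), and Kcnip3 (-0.73 ± 0.03) and Kcnip2 (-4.19 ± 0.19), both lower. Kcnab1, a β subunit of Kv1 channels, ranged from 3.00 to 3.51 in cortex and from 3.90 to 4.34 in cerebellum (0.73 ± 0.03). The β subunit Kcnab2 was lower in cerebellum (-2.48 ± 0.12), and Kcnab3 (-0.13 ± 0.12) was not called. Over the accessory class 7 of 17 probes were called higher and 7 lower. Kcne2, a small partner of several pores that is abundant in choroid plexus, was at least 7.94-fold higher in cortex by the mean over all conditions. It was above background on 18 of 20 cortex and 6 of 20 cerebellum arrays. Its ranges overlap, at -5.89 to 0.76 in cortex and -7.49 to 2.34 in cerebellum. Across the 5 conditions its difference ran from -5.73 to -0.53. Of the choroid plexus markers, 5 of 7 were also called lower in cerebellum and 1 was called higher. The part of choroid plexus tissue in the Kcne2 difference was not tested.

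Of the inward rectifiers 1 of 12 probes was called higher in cerebellum and 3 lower. Kcnj4 ranged from 4.29 to 5.88 in cortex and from -3.09 to -0.39 in cerebellum (-6.70 ± 0.22, adjusted p = 1.18e-23). Kcnj12 ranged from -0.15 to 0.88 in cortex and from 2.83 to 3.5 in cerebellum (2.73 ± 0.05), and Kcnj5 and Kcnj14 were at least 3.68-fold and 3.19-fold higher in cortex. The G protein-gated Kcnj3 (-0.08 ± 0.06), Kcnj6 (-0.07 ± 0.07) and Kcnj9 (-0.44 ± 0.05), the ATP-sensitive Kcnj8 (-0.14 ± 0.12) and Kcnj11 (0.05 ± 0.09), and Kcnj16 (0.23 ± 0.05) were not called.

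The leak channels were evenly split, with 5 of 13 probes called in each direction. Kcnk10 ranged from -0.22 to 0.58 in cortex and from 2.44 to 3.45 in cerebellum (2.79 ± 0.05), and Kcnk3, an acid-sensitive leak channel, from 0.24 to 1.27 and from 2.22 to 3.16 (2.02 ± 0.06). Kcnk12 (1.23 ± 0.06) and Kcnk1 (1.04 ± 0.04) were also higher in cerebellum. Kcnk2 (-1.71 ± 0.06), Kcnk6 (-1.19 ± 0.08), Kcnk4 (-0.99 ± 0.06) and Kcnk13 (-0.64 ± 0.06) were lower, and Kcnk9 (-0.30 ± 0.08) was not called. Of 6 microglial markers 5 were also called lower in cerebellum and 0 higher, at a median difference of -1.17. Their part in the leak channel differences was not tested.

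Among calcium-activated and sodium-activated channels, Kcnt1 ranged from 1.33 to 2.11 in cortex and from 3.18 to 3.98 in cerebellum (1.78 ± 0.05), while Kcnt2 was above background on 0 of 20 cerebellum arrays and at least 8.37-fold higher in cortex. Kcnn3, a small-conductance channel, was lower in cerebellum (-1.34 ± 0.06) and Kcnn2 was not called (0.31 ± 0.05). Kcnma1, the large-conductance pore, differed by -0.33 ± 0.04 and its neuronal β subunit Kcnmb4 by 0.03 ± 0.05, with cortex from 4.34 to 4.87 and cerebellum from 4.23 to 5.03. Neither of these was called. The second Kcnma1 probe differed by -0.79 to -0.32 across the 5 conditions, and the dimmest went the other way, by 0.16 to 0.51.

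The promoters of 4 genes with large differences between the regions, 2 in each direction, are shown from RefSeq on GRCm38.p6, from 250 bases before to 50 bases after the start of transcription. Capitals mark matches to a GC box (GGGCGG, or CCGCCC on the other strand) or a CCAAT box (CCAAT or ATTGG).
Kcnc1, chr7:46396218-46396517, plus strand: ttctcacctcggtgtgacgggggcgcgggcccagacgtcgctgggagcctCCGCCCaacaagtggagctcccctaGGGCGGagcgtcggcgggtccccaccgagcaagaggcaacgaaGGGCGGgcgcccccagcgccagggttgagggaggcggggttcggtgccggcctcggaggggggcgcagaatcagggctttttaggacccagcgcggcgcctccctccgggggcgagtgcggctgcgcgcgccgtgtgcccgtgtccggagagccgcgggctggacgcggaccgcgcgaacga
Kcng4, chr8:119635631-119635930, minus strand: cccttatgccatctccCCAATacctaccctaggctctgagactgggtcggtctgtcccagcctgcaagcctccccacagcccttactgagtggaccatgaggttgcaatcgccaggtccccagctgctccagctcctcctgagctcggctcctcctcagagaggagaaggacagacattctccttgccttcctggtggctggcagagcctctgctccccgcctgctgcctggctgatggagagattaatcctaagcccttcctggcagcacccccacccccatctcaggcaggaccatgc
Kcnf1, chr12:17176839-17177138, minus strand: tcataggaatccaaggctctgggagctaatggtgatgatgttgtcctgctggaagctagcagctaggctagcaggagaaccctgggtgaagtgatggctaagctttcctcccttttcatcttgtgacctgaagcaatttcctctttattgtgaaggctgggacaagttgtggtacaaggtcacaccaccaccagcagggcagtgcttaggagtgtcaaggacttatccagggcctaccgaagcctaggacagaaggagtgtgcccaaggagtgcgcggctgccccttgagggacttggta
Kcnj4, chr15:79505192-79505491, minus strand: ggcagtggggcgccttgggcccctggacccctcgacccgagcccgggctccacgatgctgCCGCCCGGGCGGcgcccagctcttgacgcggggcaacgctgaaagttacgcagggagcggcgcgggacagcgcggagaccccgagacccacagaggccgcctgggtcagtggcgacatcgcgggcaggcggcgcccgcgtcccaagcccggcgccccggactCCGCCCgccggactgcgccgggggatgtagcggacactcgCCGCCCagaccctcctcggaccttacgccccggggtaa

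Kcnc1 and Kcnj4, which were higher in opposite regions, both hold GC boxes, 3 and 4 in number, and have 74.7% and 76% G and C. Kcng4 holds 1 CCAAT box, and Kcnf1 holds neither motif, at 61.3% and 53% G and C. Among 93 promoters of 68 of the channel genes, 47.3% held a GC box against 35.7% of 32851 mouse promoters, 30.1% a CCAAT box against 37.4%, and 4.3% a TATA box (TATAAA) against 13.6%. The cAMP response element TGACGTCA was in 0 of the 93 promoters and in 1.79% of all. These are descriptions of letters in the window.

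Partners of the channels that are no subunits themselves were also compared between the regions. Of their 26 probes, 6 were called higher in cerebellum and 10 lower, where 21.5% of all probes were called higher and 17.9% lower. Dpp6, which with Kcnip proteins makes up the Kv4 complex, was higher (1.12 ± 0.04), as were Abcc8, the sulfonylurea receptor (0.93 ± 0.06), and Lrrc26 (1.49 ± 0.23) and Lrrc38 (0.89 ± 0.04), γ subunits of the large-conductance channel. Lgi1 (-1.41 ± 0.04) and Cntnap2 (-0.76 ± 0.04), which act with Kv1 channels, and Lrrc55 (-2.23 ± 0.14) were lower.

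Leaving out any one array left 68 to 72 probes called. No slide held both regions of one condition. For Kcng2, called probes went in opposite directions, so a direction holds for the probe and not for the gene.

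In aged against young WT cortex 0 of 98 probes passed the rule of adjusted p and fold in limma, where 1.59% of all probes were called higher and 0.499% lower, and 13 had an unadjusted p under 0.05. Their median change was -0.11, against -0.03 over all probes, and 67.3% of them were lower in aged mice, against 56.4% of all probes. By adjusted p alone 0 were higher and 3 lower, where 2.76% of all probes were higher and 1.38% lower. Among the latter, Kcns2, a silent subunit, was -0.30, -0.45, -0.47 and -0.48 in young and -0.86, -0.61, -0.84 and -0.75 in aged mice (-0.34 ± 0.09, adjusted p = 0.0263). A second probe of Kcnj3, which forms G protein-gated channels, fell by 0.43 ± 0.11 (adjusted p = 0.0205), while its brightest probe changed by -0.26 ± 0.13 (adjusted p = 0.341). For both probes every aged array lay below every young array. Young and aged cortex shared a slide. Of 7 markers of the striatum, which adjoins the cortex, 3 were called lower in aged cortex, at a median change of -0.86, and their summed level was 6.02 to 6.38 in young and 5.10 to 5.49 in aged mice. Their part in the channel values was not tested.

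In aged against young WT cerebellum the leak channel Kcnk6 was higher, and the Kv1 subunit Kcna2, the Kv4 accessory proteins Kcnip3 and Kcnip4 and the ether-a-go-go subunit Kcnh3 were lower by adjusted p, also without the first and second young arrays. Kcnc1, Kcnd2 and Kcnk3 were lower with all arrays. By the rule of adjusted p and fold, 6 of 89 probes were called higher and 3 lower in aged cerebellum, where 3.99% of all probes were called higher and 1.04% lower. By adjusted p alone, with no minimum fold, 9 probes for 9 genes were higher and 19 probes for 15 genes lower, where 6.94% of all probes were higher and 4.07% lower. Leaving out one array at a time gave 2 (without young array 1 or aged array 4) to 11 (without young array 4) higher, and 11 (without aged array 1) to 17 lower. Higher probes numbered 3 without young array 2, 3 without aged array 3 and 4 without aged array 1. The median change was -0.11, against -0.01 over all probes. Over the 8 markers of the cerebellum, which include none of the channels, the median change was -0.41, with 0 called in either direction, and their summed level was 9.26 to 9.48 in young and 9.01 to 9.14 in aged cerebellum, which do not overlap. Their part in the rises and falls was not tested.

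**Figure D2:**
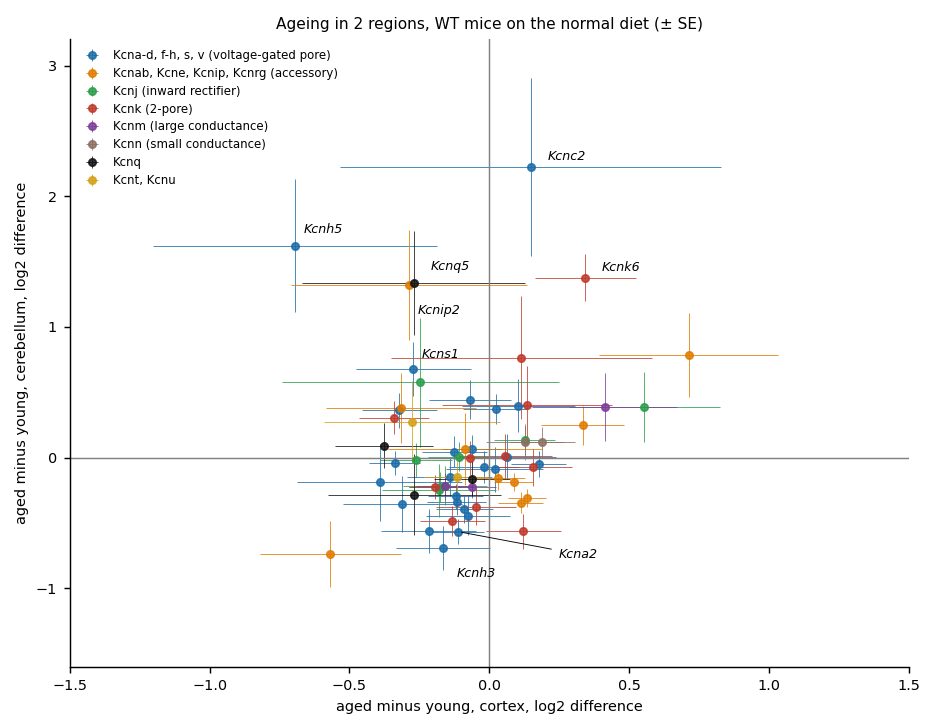
Change in log2 signal from young to aged WT mice on the normal diet, in cortex on the horizontal and cerebellum on the vertical axis, for 64 genes tested in both, with standard errors (n = 4 arrays a group) and coloured by channel class. Kcnk6 lies high in cerebellum at 1.38, and Kcnc2, Kcnh5, Kcnq5 and Kcnip2 have wide vertical error bars.

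Kcnk6, a leak channel of the TWIK family, was -3.09, -2.36, -2.0 and -2.07 in young and -1.08, -1.18, -0.96 and -0.79 in aged cerebellum. Every aged array lay above every young one, a rise of 1.38 ± 0.18 (adjusted p = 1.45e-06), and the call was kept under all 18 alternatives tried. In cortex it was -0.35, -0.72, -0.37 and -0.01 in young and -0.14, -0.10, -0.03 and 0.19 in aged mice, ranges that overlap (0.34 ± 0.18, adjusted p = 0.384). The microglial markers Aif1 (1.79 ± 0.17), Tmem119, Cx3cr1 and Csf1r were called higher with age in the same cerebellum arrays, 4 of 6 in the list, at a median change of 0.815. Their summed level was 6.36 to 6.46 in young and 6.45 to 6.68 in aged cerebellum, all 6 markers were above background, and their part in the Kcnk6 result was not tested.

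Among the genes that fell, Kcnh3, of the ether-a-go-go family, was -0.09, -0.17, 0.04 and 0.47 in young and -0.60, -0.69, -0.81 and -0.42 in aged cerebellum (-0.69 ± 0.17, adjusted p = 0.00525). Kcnc1 was 4.58, 4.73, 4.62 and 4.61 in young and 4.17, 4.19, 4.33 and 4.07 in aged mice (-0.45 ± 0.15, adjusted p = 0.0481). Kcna2, an axonal Kv1 subunit, was 2.40, 2.44, 2.38 and 2.22 in young and 1.70, 1.82, 1.87 and 1.77 in aged mice (-0.57 ± 0.09, adjusted p = 5.53e-05). In all 3 genes the highest aged array was below the lowest young array.

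Kcnd2 was 5.16, 5.33, 5.33 and 5.27 in young and 4.71, 5.06, 4.72 and 5.01 in aged cerebellum, with no overlap (-0.40 ± 0.10, adjusted p = 0.00807). Its accessory proteins Kcnip4 (-0.35 ± 0.08) and Kcnip3 (-0.31 ± 0.07) passed the adjusted p as well, and Kcnip1 (-0.16 ± 0.09, adjusted p = 0.352) did not. The leak channel Kcnk3 was 2.92, 3.16, 3.05 and 2.91 in young and 2.46, 2.53, 2.36 and 2.43 in aged mice (-0.56 ± 0.13, adjusted p = 0.00425), and Kcnk10, another leak channel, changed by -0.48 ± 0.12. The arrays of the 2 ages are again apart for Kcnk3 and Kcnk10. Kcng2 (-0.56 ± 0.17), Kcna7 (-0.34 ± 0.11), Kcna1 (-0.30 ± 0.10), the second probe of Kcnj3 (-0.37 ± 0.11) and 2 probes of Kcnma1 (-0.45 ± 0.11 and -0.34 ± 0.09) were also among the falls, as was Kcne2. The brightest probes of Kcnj3 (-0.02 ± 0.13, adjusted p = 0.967) and Kcnma1 (-0.22 ± 0.08, adjusted p = 0.0859) did not pass the adjusted p.

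**Figure D3:**
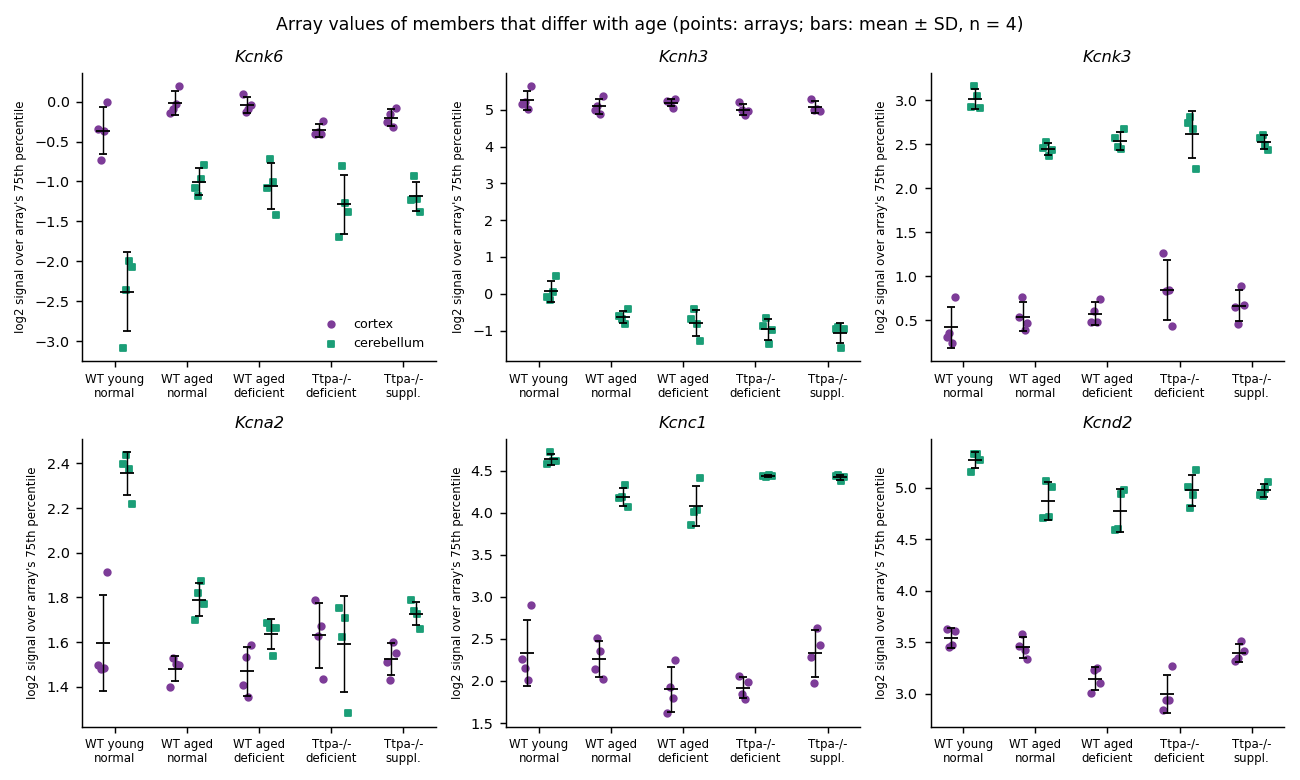
Level of 6 genes on every array of the 10 groups, as log2 signal over the array's 75th percentile, with cortex and cerebellum side by side (points are arrays, bars the mean ± SD, n = 4). In cerebellum the aged WT arrays on the normal diet lie above the young ones for Kcnk6 and below them for Kcnh3, Kcnk3, Kcna2, Kcnc1 and Kcnd2.

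Of the genes that rose, Kcns1, a silent subunit, was -3.96, -3.86, -4.12 and -4.12 in young and -3.57, -3.42, -3.22 and -3.16 in aged cerebellum (0.68 ± 0.21, adjusted p = 0.028), a call lost under 9 of 18 alternatives. Kcnc4 (0.37 ± 0.12) and the Kv1 subunit Kcna3 (0.44 ± 0.15) passed the adjusted p alone. Among the neuronal channel genes whose change missed it were Kcnq3 (0.09 ± 0.17), Kcnh2 (0.01 ± 0.17), Kcnd3 (-0.05 ± 0.10), Kcnj12 (0.01 ± 0.11), Kcnn2 (0.12 ± 0.12) and Kcnmb4 (-0.22 ± 0.10). No partner gene was called with age in either region.

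The other rises rested on the young arrays. Kcnc2 was -5.49, -3.70, -0.14 and 0.49 in young cerebellum and 0.07, -0.50, 0.45 and 0.05 in aged cerebellum (2.23 ± 0.68, adjusted p = 0.0297). Kcnh5 was -4.69, -4.39, -1.46 and -1.16 in young mice, Kcnip2 -4.93, -4.87, -2.64 and -1.98, and Kcnq5 -6.51, -6.77, -4.41 and -4.03. The first and second young arrays are low for all 4 genes, and the third and the fourth lie at or near the aged ones. Without those 2 arrays the changes were -0.16, 0.00, 0.03 and 0.13, against 2.23, 1.62, 1.32 and 1.33 with them.

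Slc17a6, the vesicular glutamate transporter of brainstem and deep cerebellar neurons, which is no member and was picked after these values were seen, was -5.17, -1.93, 1.99 and 2.62 in young and 1.53 to 2.32 in aged cerebellum. It was low on the same 2 young arrays. Its part in the 4 rises was not tested. Without the first and second young arrays 2 probes of all channel subunits kept a call by the full rule, and by adjusted p alone 2 were higher and 4 lower. All 6 of these were among the 28 picked with all arrays. Of the 28, 27 kept their sign, but they had been picked on arrays that include the remaining ones. Among the 27 are Kcnh5, Kcnip2 and Kcnq5, whose changes fell to 0.004, 0.03 and 0.13. Among the 6 were Kcnk6 (1.03, adjusted p = 0.000404), Kcna2 (-0.51, adjusted p = 0.00675), Kcnh3 (-0.89, adjusted p = 0.00679), Kcnip4 (-0.36, adjusted p = 0.0319) and Kcnip3 (-0.30, adjusted p = 0.0424). Kcnc1 (-0.43, adjusted p = 0.269), Kcnk3 (-0.54, adjusted p = 0.0677) and Kcnd2 (-0.42, adjusted p = 0.0508) were no longer past the threshold.

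Kcne2 was 2.34, -1.15, -3.26 and -3.52 in young cerebellum and above background on 0 of 4 aged arrays, at least 12.5-fold lower in aged mice (adjusted p = 0.00106). The first young array is far above the rest, and without it Kcne2 was at least 5.26-fold lower (adjusted p = 0.0119). Ttr, the transthyretin made in choroid plexus, was 7.78, 4.64, 2.55 and 1.19 on the same young arrays and -5.66 to -2.63 on the aged ones, and 2 of 7 choroid plexus markers were called lower. The summed level of the 7 markers was 7.94, 5.0, 3.53 and 3.1 in young and 2.46 to 2.66 in aged cerebellum. Without the first and second young arrays Kcne2 was no longer past the threshold (adjusted p = 0.121). The part of choroid plexus tissue in the fall was not tested, and over all 40 arrays Kcne2 and Ttr were high on the same arrays.

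**Figure D4:**
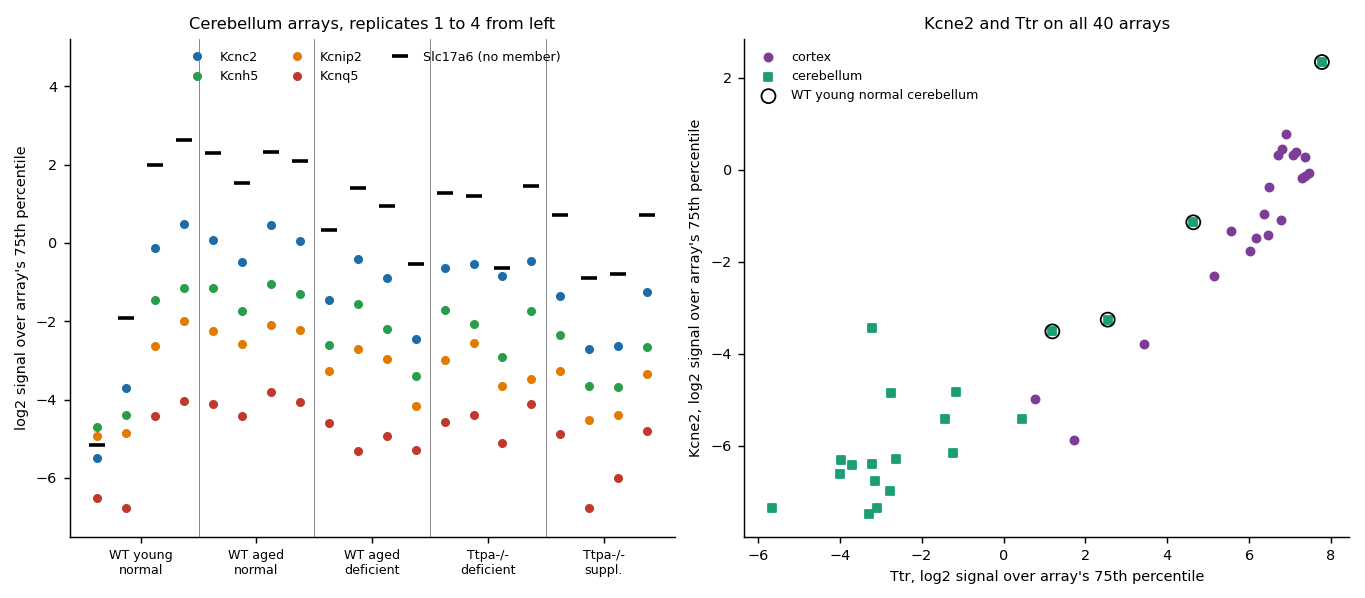
Left, levels of Kcnc2, Kcnh5, Kcnip2 and Kcnq5 on the 20 cerebellum arrays, with Slc17a6, a gene outside the family, as bars, replicates 1 to 4 of each group from the left, as log2 signal over the array's 75th percentile. Right, Kcne2 against Ttr on all 40 arrays in the same unit, with the 4 young cerebellum arrays ringed. The first and second young cerebellum arrays are the lowest of the young group for all 4 genes and for Slc17a6, and arrays with high Ttr have high Kcne2.

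Young and aged cerebellum were on different slides, so slide and age cannot be told apart there. Scaling each array by its median gave 2 higher and 9 lower by adjusted p alone, and quantile normalization 7 and 21.

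Ageing differed between the regions, by the test of the difference itself, for 3 of 100 probes, all more positive in cerebellum, where 1% of all probes were called higher and 0.462% lower. Among them were Kcnk6 (1.03 ± 0.26, adjusted p = 0.026, lost under 9 of 23 alternatives) and Kcnv1 (a fitted 1.90 ± 0.39, adjusted p = 0.00512). In cerebellum Kcnv1 was above background on 0 of 4 young arrays and 1 of 4 aged ones, so that neither its change there nor the difference has a measured size. In cortex it was 2.52, 2.47, 2.28 and 2.76 in young and 2.0, 1.93, 1.82 and 2.31 in aged mice, an overlap by 1 array (-0.49 ± 0.27, adjusted p = 0.424).

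In cortex of Ttpa-/- mice on the deficient diet against WT on the normal diet, 2 of 103 probes were called higher and 1 lower, where 3.14% of all probes were called higher and 1.6% lower. In the same comparison 2 of 7 striatal markers were called higher, at a median change of 0.51 and a summed level of 5.73 to 5.96 against 5.10 to 5.49 in WT, and 6 oligodendrocyte markers had a median change of -0.51 with 0 called. Their part was not tested. Kcnj8, a pore of the vascular ATP-sensitive channel, was -2.82, -2.95, -2.30 and -2.82 in WT and -4.38, -3.17, -3.31 and -3.37 in Ttpa-/- mice (-0.83 ± 0.27, adjusted p = 0.0285). The groups do not overlap, but the first Ttpa-/- array was not above background, and the call was lost under 6 of 17 alternatives. A second probe of Kcna6, a Kv1 subunit, was 0.80, 0.79, 0.72 and 1.15 in WT and 1.72, 1.51, 1.46 and 1.24 in Ttpa-/- mice (0.62 ± 0.14, adjusted p = 0.00206, lost under 3 of 17 alternatives), whereas its other probes changed by -0.27 ± 0.12 and -0.09 ± 0.20 and were not called.

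Within Ttpa-/- cortex, the deficient against the supplemented diet gave 1 probe of 102 higher and 2 lower, where 1.99% of all probes were called higher and 1.31% lower. Of 6 oligodendrocyte markers 1 was called lower there and 0 higher, at a median change of -0.47, and their part was not tested. Kcng2, a silent subunit, was 1.45, 0.86, 0.75 and 1.0 on the deficient and 1.71, 1.50, 2.06 and 1.46 on the supplemented diet (-0.67 ± 0.17, adjusted p = 0.00885, lost under 5 of 17), with the highest deficient array just under the lowest supplemented one. The second probe of Kcnd1, a Kv4 subunit, was -2.06, -1.85, -2.0 and -1.70 on the deficient and -1.22, -1.02, -1.16 and -1.30 on the supplemented diet (-0.73 ± 0.17, adjusted p = 0.00582, lost under 3 of 17), while its brightest probe changed by 0.44 ± 0.12. Kcna6 was higher again by its second probe (0.60 ± 0.14, adjusted p = 0.00386), a call lost under 6 of 17 alternatives.

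On the deficient diet, Ttpa-/- against WT cortex gave 0 of 102 probes higher and 2 lower, where 1.53% of all probes were called in each direction. These were Kcng2 (-0.64 ± 0.17, adjusted p = 0.0138), at 1.76, 1.76, 1.74 and 1.35 in WT, of which the lowest lies among the Ttpa-/- arrays, and the second probe of Kcnd1 (-0.68 ± 0.17, adjusted p = 0.0105). They lost their calls under 4 and 3 of 17 alternatives. These comparisons share the Ttpa-/- arrays on the deficient diet. The deficient diet in WT cortex and the supplemented Ttpa-/- cortex against WT on the normal diet gave 0 of 101 and 0 of 98 probes in limma, with 11 and 9 at an unadjusted p under 0.05. Of all probes, 0.117% were called higher and 0.106% lower in the former and 0.0354% and 0.0566% in the latter.

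**Figure D5:**
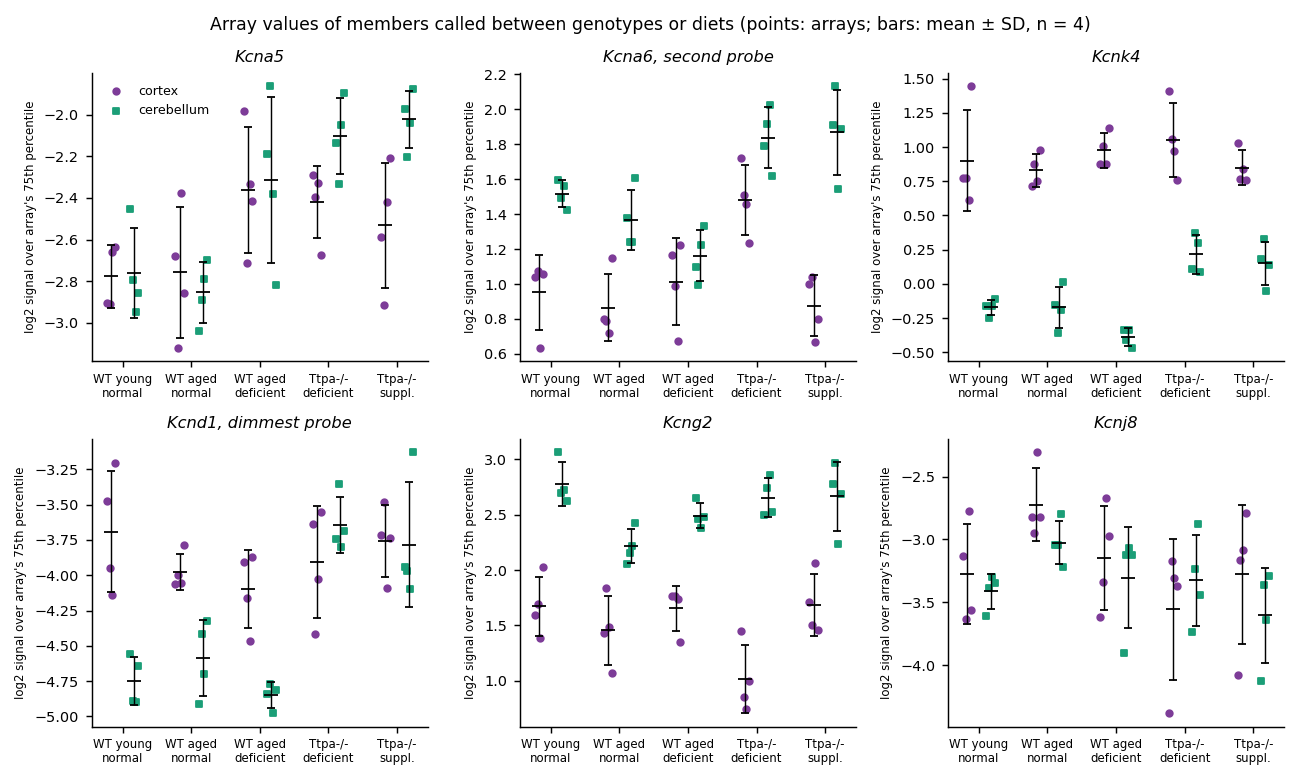
Level of 6 genes called between genotypes or diets on every array, as log2 signal over the array's 75th percentile, with cortex and cerebellum side by side (points are arrays, bars the mean ± SD, n = 4). In cerebellum Kcna5 lies above the WT mice on the normal diet in both Ttpa-/- groups, and in cortex Kcng2 is lowest in Ttpa-/- mice on the deficient diet.

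In the cerebellum the Kv1 subunit Kcna5 was higher by its brightest probe in both Ttpa-/- groups than in aged WT mice on the normal diet. It was -3.04, -2.89, -2.79 and -2.70 in WT, -2.13, -2.33, -2.05 and -1.89 in Ttpa-/- mice on the deficient diet (0.75 ± 0.17, adjusted p = 0.00436) and -1.97, -2.20, -2.04 and -1.87 on the supplemented diet (0.83 ± 0.17, adjusted p = 0.00175). No Ttpa-/- array reached down to the WT arrays, and each call was lost under 1 of 17 alternatives, the normexp background correction. Aged WT mice on the deficient diet were at -2.19, -1.86, -2.38 and -2.82, overlapping both (0.54 ± 0.17 against the normal diet, adjusted p = 0.0646). The 2 comparisons share the WT arrays. The second probe of Kcna5, above background on 26 of 40 arrays, ranged from -6.58 to -3.08 in cerebellum and from -3.04 to -0.83 in cortex.

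Against WT on the normal diet, Ttpa-/- mice on the deficient diet had 2 of 91 cerebellum probes higher and 3 lower, where 2.67% of all probes were called higher and 1.79% lower. Of 6 oligodendrocyte markers 2 were called lower there and 0 higher, at a median change of -0.49, and their part was not tested. The dimmest probe of Kcnd1 was -4.91, -4.41, -4.70 and -4.32 in WT, above background on 3 of 4 arrays, and -3.74, -3.36, -3.80 and -3.68 in Ttpa-/- mice (0.94 ± 0.20, adjusted p = 0.00247), and under the normexp correction it changed by 0.28 and lost its call. Its brightest probe changed by 0.35 ± 0.12 (adjusted p = 0.0395) in the same direction. Kcnj11, a pore of the ATP-sensitive channel, was by its second probe -3.26, -2.80, -2.68 and -2.86 in WT and -3.42, -3.41, -3.34 and -3.87 in Ttpa-/- mice (-0.61 ± 0.19, adjusted p = 0.0313, lost under 8 of 17 alternatives), and its brightest probe changed by -0.18 ± 0.20. Kcnab2 (-0.82 ± 0.28, adjusted p = 0.0434) overlapped between the groups and lost its call under 12 of 17 alternatives. By its second probe, Kcng2 was above background on 0 of 4 Ttpa-/- arrays, at least 1.34-fold lower (adjusted p = 0.0343), and lost its call under 10 of 17.

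Supplemented Ttpa-/- mice against WT on the normal diet had 2 of 92 cerebellum probes higher and 4 lower, where 3.34% of all probes were called higher and 1.57% lower. The higher ones were Kcna5 and the dimmest probe of Kcnd1 (0.80 ± 0.20, adjusted p = 0.00762), the latter lost under 5 of 17 alternatives, among them normexp (0.21). The lower ones were the genes that were also low on the first and second young arrays. Kcnc2 was -1.37, -2.70, -2.64 and -1.26 in supplemented Ttpa-/- mice against -0.50 to 0.45 in WT (-2.01 ± 0.68, adjusted p = 0.0432, lost under 8 of 17). Kcnh5 changed by -1.78 ± 0.51 (adjusted p = 0.0175, lost under 2 of 17) and Kcnip2 by -1.6 ± 0.42 (adjusted p = 0.0101), and Kcnq5, above background on 0 of 4 supplemented arrays, was at least 1.87-fold lower (adjusted p = 0.00981, lost under 4 of 17). None of these 4 genes overlapped between the groups. Slc17a6 was 0.71, -0.90, -0.79 and 0.71 in supplemented Ttpa-/- mice and 1.53 to 2.32 in WT, with no overlap either (-2.13 ± 0.87, adjusted p = 0.0965), and its part was not tested.

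On the deficient diet, Ttpa-/- against WT cerebellum gave 3 of 89 probes higher and 4 lower, where 3.02% of all probes were called higher and 1.92% lower. Kcnk4, a mechanosensitive leak channel, was -0.34, -0.41, -0.34 and -0.47 in WT and 0.11, 0.37, 0.30 and 0.08 in Ttpa-/- mice (0.60 ± 0.13, adjusted p = 0.00239, lost under 4 of 17 alternatives). The second probe of Kcna6 was 1.1, 1.0, 1.22 and 1.33 in WT and 1.79, 1.92, 2.03 and 1.62 in Ttpa-/- mice (0.68 ± 0.14, adjusted p = 0.00118), and its brightest probe changed by 0.31 ± 0.12 (adjusted p = 0.0908). Neither overlaps between the groups. The dimmest probe of Kcnd1 was higher again (1.20 ± 0.20, adjusted p = 0.000187), with its brightest probe at 0.51 ± 0.12 (adjusted p = 0.00367). Under the normexp correction the dimmest probe changed by 0.34 and lost its call. Among the lower probes were the second probe of Kcnj11 (-0.60 ± 0.19, adjusted p = 0.0366) and Kcnrg (-0.75 ± 0.25, adjusted p = 0.0466, overlapping), which lost their calls under 9 and 11 of 17 alternatives.

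The diet comparisons within a genotype in cerebellum each lay within a slide. The deficient diet in WT cerebellum gave 1 of 90 probes higher and 0 lower, where 0.458% of all probes were called higher and 0.816% lower. This was Kcnrg, a soluble regulator that binds voltage-gated subunits, at -3.41, -2.69, -3.09 and -3.98 on the normal and -2.16, -2.22, -2.56 and -2.78 on the deficient diet. The highest normal array lies among the deficient ones (0.86 ± 0.25, adjusted p = 0.0448), and 10 of 17 alternatives lost the call. Of 6 oligodendrocyte markers 1 was called lower on the deficient diet and 0 higher, at a median change of -0.50. Their part was not tested. The deficient against the supplemented diet in Ttpa-/- cerebellum gave 0 of 89 probes in limma and 10 at an unadjusted p under 0.05, where 0.134% of all probes were called higher and 0.209% lower.

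The change from WT on the normal diet to Ttpa-/- on the deficient diet differed between the regions for 7 of 105 probes, 2 more positive and 5 more negative in cerebellum, where 1.47% of all probes were called higher and 1.91% lower. Kcna3, a Kv1 subunit, was 0.46 ± 0.15 higher in Ttpa-/- cortex (adjusted p = 0.0284), changed by -0.40 ± 0.15 in cerebellum (adjusted p = 0.0696), and differed by -0.85 ± 0.21 (adjusted p = 0.0117). Kcng2 by its brightest probe went the other way (0.88 ± 0.24, adjusted p = 0.0239), from -0.44 to 0.44, as did Kcnn3 (0.72 ± 0.20, adjusted p = 0.0248), from -0.19 to 0.53. The second probe of Kcng2 was called lower in Ttpa-/- cerebellum, so the direction there holds for the probe and not for the gene. The second probe of Kcnj11 (-0.87 ± 0.27, adjusted p = 0.0464) and Kcnk2 (-0.61 ± 0.18, adjusted p = 0.0331) were also among them. All 7 were lost when each array was scaled by its median and when the compared groups were fitted alone.

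Of the partner genes, Hcn2, a pacemaker channel, was higher in Ttpa-/- cortex on the deficient diet than in WT on the normal diet (0.61 ± 0.16, adjusted p = 0.00907) and than on the supplemented diet (0.66 ± 0.16, adjusted p = 0.00739). Hcn3 was higher than in WT on the deficient diet (0.71 ± 0.16, adjusted p = 0.0054). Each of these comparisons had 1 of 25 partner probes called higher, where 3.14%, 1.99% and 1.53% of all probes were called higher. A second probe of Hcn2 was called in none of them. Its change to Ttpa-/- on the deficient diet was more negative in cerebellum than in cortex (-0.80 ± 0.17, adjusted p = 0.00605). No partner was called between genotypes or diets in cerebellum.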

How the data were processed

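Total RNA of cortex and cerebellum was labelled with Cy3 and hybridised to Agilent mouse arrays, 4 arrays for each of 10 groups. The authors deposited one scanner file per array, made with Feature Extraction 10.7.3.1 per the file headers, with probe positions on mm9, which holds spot intensities (a processed signal that the software had corrected for background and spatial trend, and the mean and local background signals) and flags. They also deposited a table of log2 values, which equalled log2 of the processed intensity minus each array's 75th percentile, centred per probe (median absolute difference 0.000915). That table was used as an alternative only.

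Processed intensities were averaged per probe after control spots and outlier flags (95 to 148 spots per array) were left out, log2 transformed, and the array's 75th percentile was subtracted. All 40 arrays were fitted in limma 3.58.1 (R 4.3.3) with one coefficient for each of the 10 groups, and p-values were adjusted by Benjamini-Hochberg over the probes that 4 of 4 arrays of a compared group had well above background. A call needed an adjusted p under 0.05 and a fold over 1.5, the fold the methods use. The fit was tested on simulated data. The precision is limited by the 4 arrays per group.

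The members, gene lists and tests were chosen with earlier results of these data known. Named were the called members, up to 15 in each direction for ageing, 10 for other comparisons and 12 between regions, and a list of neuronal channel genes whether called or not. Results of some members are not reported here, and counts over the members include them. Alternatives were quantile and median scaling, normexp background correction, no filter on dim probes, the compared groups alone, the authors' log2 values, the methods' t-test, a replicate block and leaving out each array. Same-numbered arrays of compared groups deviated together at r = -0.402 to 0.599 (20 of 48 pairs over 0.1), and cortex and cerebellum arrays of a condition at -0.102 to 0.437 (12 of 20). The labels do not say whether a number marks a mouse, so the numbers were not taken to pair them.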

Additional observations from a re-analysis of the deposited data

Results flagged for a closer look

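Of 52 groups of 4 arrays examined for the named genes, 5 held an array apart from the other 3, and chance flags about 1 in 20 groups. In cortex, Kcnj8 was -4.38 on the first Ttpa-/- array on the deficient diet against -3.37 to -3.17 on the others, and Kcng2 was 1.35 on the fourth aged WT array on the deficient diet against 1.74 to 1.76. In cerebellum, Kcne2 was -6.30 on the fourth aged WT array on the normal diet against -7.49 to -7.36, all not well above background, the second probe of Kcnj11 was -3.87 on the fourth Ttpa-/- array on the deficient diet against -3.42 to -3.34, and the dimmest probe of Kcnd1 was -3.12 on the fourth supplemented Ttpa-/- array against -4.10 to -3.94.

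The change with age differed between cerebellum and cortex, on the log2 scale in limma, by 1.03 for Kcnk6 and by a fitted 1.90 for Kcnv1, which was above background on 0 of 4 young and 1 of 4 aged cerebellum arrays, so that its difference has no measured size. The change from WT on the normal diet to Ttpa-/- on the deficient diet differed by 0.880 for the brightest probe of Kcng2, 0.716 for Kcnn3, -0.866 for the second probe of Kcnj11, -0.853 for Kcna3 and -0.614 for Kcnk2. The second probe of Kcng2 was called lower in Ttpa-/- cerebellum. Young and aged cortex shared a slide. The other groups compared within a region for these differences were on different slides, so slide and condition cannot be told apart for them.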

How the results depend on the processing

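With 4 arrays per group, and slide and condition not separable in most comparisons, small counts of calls moved easily. In counts of called potassium channel probes, quantile normalization gave 5 for the deficient diet in WT cerebellum. Median scaling gave 1 for Ttpa-/- deficient against supplemented cortex, 0 for Ttpa-/- against WT cortex on the deficient diet, 2 for Ttpa-/- deficient against WT normal cerebellum and 0 for its difference between regions. Normexp correction gave, in cortex, 0 for Ttpa-/- deficient against WT normal, 1 against supplemented and 1 against WT deficient, and in cerebellum 5 for ageing, 0 for Ttpa-/- deficient against WT normal, 0 for the deficient diet in WT, 3 for Ttpa-/- supplemented against WT normal and 1 for Ttpa-/- against WT on the deficient diet. No filter on dim probes gave, in cortex, 5 for Ttpa-/- deficient and 1 for supplemented against WT normal and 6 for deficient against supplemented, and 1 for the last in cerebellum. The compared groups alone gave, in cortex, 1 for Ttpa-/- deficient against WT normal, 0 against supplemented and 0 against WT deficient, in cerebellum 4 for ageing, 3 for Ttpa-/- deficient against WT normal, 0 for the deficient diet in WT and 4 for Ttpa-/- against WT on the deficient diet, and 0 for the Ttpa-/- deficient difference between regions. The methods' t-test, unadjusted, gave in cortex 1 for ageing, 3 for the deficient diet in WT, 1 for Ttpa-/- supplemented against WT normal and 4 for Ttpa-/- against WT on the deficient diet, and in cerebellum 8 for Ttpa-/- deficient against WT normal, 9 for the deficient diet in WT and 2 for Ttpa-/- deficient against supplemented. Adjusted, it gave 1 in each Ttpa-/- deficient comparison in cortex, and in cerebellum 2 for ageing, 2 for Ttpa-/- deficient against WT normal, 0 for the deficient diet in WT and 2 for Ttpa-/- against WT on the deficient diet. Alternatives chosen after seeing the data were the adjusted p alone, which gave 3 for ageing in cortex and 28 in cerebellum, and leaving out the first and second young cerebellum arrays together, which gave 2 for ageing in cerebellum and turned Kcnc2 to -0.16. The cause of these moves was not tested.

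Leaving out one array at a time gave 0 for ageing in cortex, 4 (without young array 1) to 14 (without young array 4) in cerebellum and 2 to 9 for its difference between regions, and 68 to 72 between regions. In cortex it gave 1 to 4 for Ttpa-/- deficient against WT normal, 0 to 3 for the deficient diet in WT, 0 to 1 for Ttpa-/- supplemented against WT normal, 1 to 4 for deficient against supplemented and 1 to 3 for Ttpa-/- against WT on the deficient diet. In cerebellum the same comparisons gave 2 to 8, 0 to 3, 3 to 8, 0 to 1 and 4 to 8, and the Ttpa-/- deficient difference between regions 3 to 13. The replicate block gave 10 for ageing in cerebellum against 9 and 9 for the Ttpa-/- deficient difference between regions against 7, and the same count elsewhere. The numbers were not taken to pair the samples, since the labels do not say what a number marks. Between compared groups 17 of 48 same-numbered pairs correlated best with their own number, and between cortex and cerebellum of a condition 13 of 20. The slide as a block could not be fitted and was not run.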
